A study of Mus musculus with 6 samples.

Results

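The genes described here are 10 factors of epithelial adhesion and identity, Epcam, Cdh1, Esrp1, Esrp2, Grhl2, Ovol1, Elf3, Rab25, Ehf and Gata3, taken by symbol from a table of 56691 genes, each symbol matching 1 row. RNA was measured in 4T1, an established mouse mammary carcinoma line, grown overnight and then kept for 4 h in fresh medium with vehicle or with KIRA6 at 1 µmol/L. KIRA6 inhibits IRE1α, a stress sensor of the endoplasmic reticulum, by occupying its kinase pocket and so dampening its RNase. These libraries include no other means of blocking IRE1α. Effects through IRE1α and through any other target of KIRA6 therefore cannot be told apart. There were 3 libraries in each of the 2 groups, and since no label names separate cultures, the p-values reflect the spread between these libraries, possibly a technical one. The comparison asks which transcripts of the tumour cells differ after this short exposure.

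Epithelial cells adhere to one another through E-cadherin, which Cdh1 encodes and which is anchored to actin by catenins, and through the surface glycoprotein EpCAM. A set of transcription factors keeps such genes active: grainyhead-like and OVOL factors, epithelium-specific ETS factors and, in mammary luminal cells, GATA3. The ESRP proteins fix the epithelial pattern of splicing, and Rab25 recycles membrane proteins to the cell surface. ZEB, SNAI and TWIST factors repress several of these genes when epithelial cells take on mesenchymal traits.

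After 4 h with KIRA6, 4 of the 9 tested members were called higher and 0 lower. These were the ETS factor Elf3, from 4.34 to 22.2 FPKM, the adhesion molecule Epcam, from 38.8 to 65.1 FPKM, the splicing regulator Esrp1, from 11.2 to 18.8 FPKM, and the zinc finger repressor Ovol1, from 1.27 to 2.55 FPKM. FPKM divides a gene's fragments by the length of its exons and by the total of the library, and a gene was called at an adjusted p below 0.05 in limma fitted to log2(FPKM + 0.5) over the 11778 genes whose mean reached 0.5 FPKM. Of all tested genes 15.6% were called higher, 7.98% lower and 23.6% in either direction. Cdh1, Gata3 and Rab25 had higher means with KIRA6 and were not called, Esrp2 and Grhl2 had log2 fold changes close to 0, and Ehf was too low to test. The groups did not overlap for 5 of the 9 tested members, each with the KIRA6 libraries above the vehicle libraries, against 27.7% of tested genes in that direction and 14.1% in the other.

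The libraries held an estimated 16495500 to 21347250 fragments assigned to genes. On the first principal component (56.0% of the variance) all 3 vehicle libraries lay on one side and all 3 KIRA6 libraries on the other. Vehicle replicate 3 at -10.2 and KIRA6 replicate 1 at 11.03 were nearest the middle, with the other vehicle libraries at -47.7 and -43.8 and the other KIRA6 libraries at 42.05 and 48.6. On the second component (35.1%) Vehicle replicate 3 at -55.9 and KIRA6 replicate 1 at 44.5 also stood apart from their groups. The log2 fold change of the median tested gene was 0.16, and -0.008 after median-ratio scaling of the libraries. The luminal keratin genes Krt7, Krt8, Krt18 and Krt19 summed to 1199 to 1381 FPKM in the vehicle and 1294 to 1492 FPKM in the KIRA6 libraries, and Krt8 and Krt18 made up most of that sum. Of the 4 basal genes Krt14 and Krt17 were detected while Krt5 was at 0 and Trp63 at no more than 0.01 FPKM, and the sum ran from 22.7 to 24.0 FPKM in vehicle and from 155.8 to 167.8 FPKM with KIRA6, almost all of it Krt14. Of 6 leukocyte genes Ptprc, Cd3e and Adgre1 reached at most 0.01 FPKM and Cd68 alone exceeded 0.5 FPKM, with list sums of 1.7 to 2.67 FPKM in vehicle and 3.16 to 3.84 FPKM with KIRA6. The 4 endothelial genes reached at most 0.04 FPKM in any library. The 7 fibroblast and mural genes summed to 0.50 to 0.94 FPKM and 2.53 to 4.42 FPKM, most of it Pdgfra. Acta2 had 0.05 to 0.17 FPKM in vehicle and 0.50 to 0.64 FPKM with KIRA6. The other genes of that list reached at most 0.08 FPKM, with Dcn and Pdgfrb at no more than 0.01 and 0.02 FPKM.

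**Figure D1:**
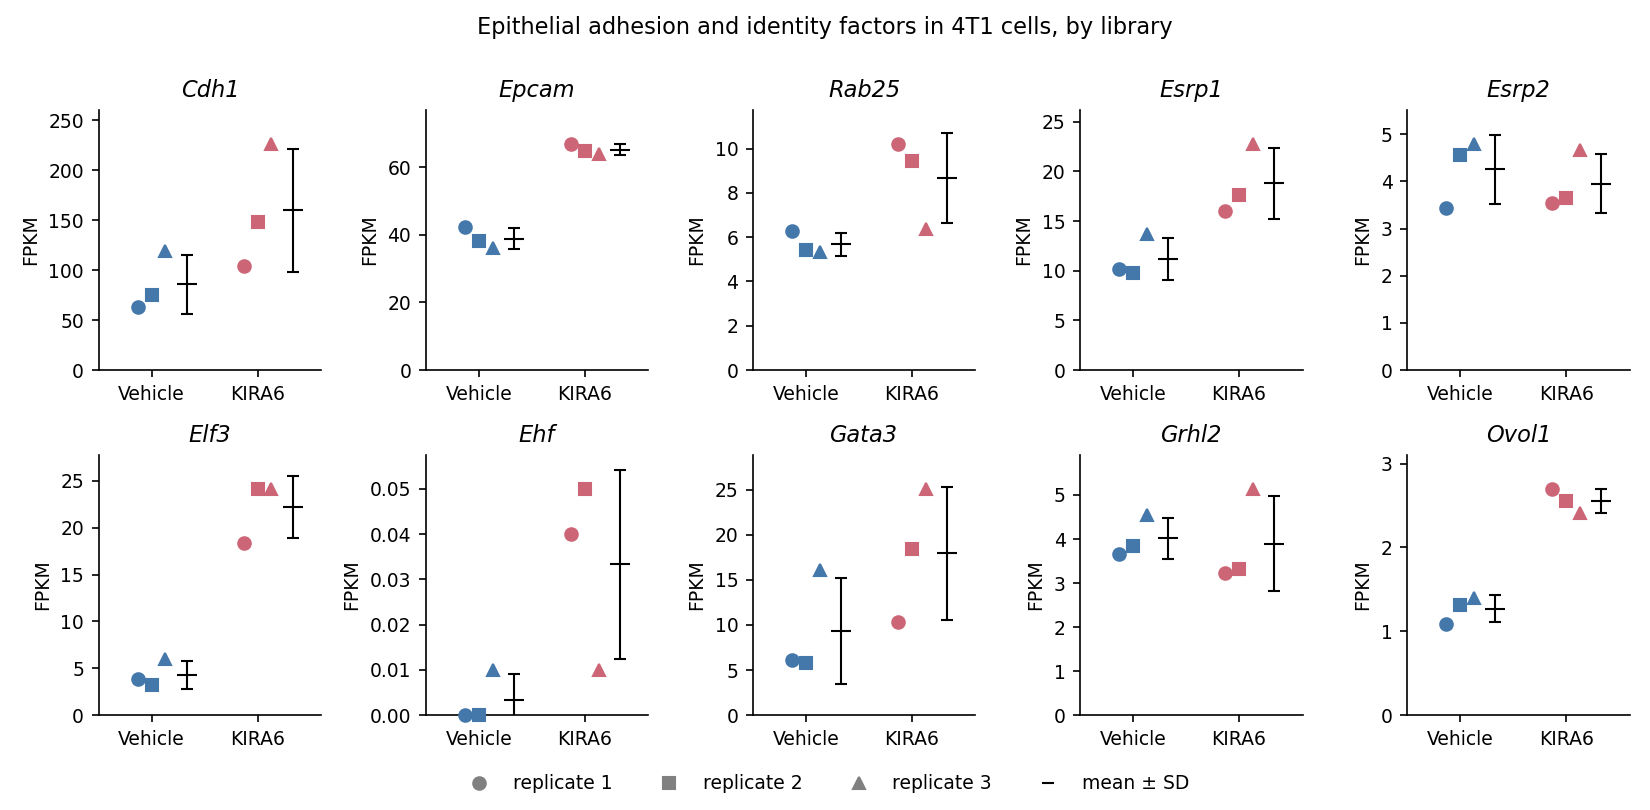
FPKM of each of the 10 members in each library, with vehicle in blue, KIRA6 in red, a marker shape for each replicate number and the mean ± SD of the 3 libraries beside them. Epcam, Elf3, Esrp1, Ovol1 and Rab25 have no overlap between the groups, Cdh1 and Gata3 overlap through Vehicle replicate 3 and KIRA6 replicate 1, and Ehf stays at or below 0.05 FPKM.

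Promoter sequences in the RefSeq tables (build GRCm38.p6, 250 bases before to 50 bases after the start site) matched 4 of the 10 members: Epcam, Elf3, Rab25 and Gata3. They were searched on both strands for CAGGTG, the E-box that ZEB and SNAI repressors bind (CACCTG on the other strand), for the grainyhead-like site AACCGGTT and its looser form AACNNGTT, which includes it, for the ETS core GGAAGT and for the GATA site AGATAA. The Epcam, Elf3 and Rab25 promoters are shown because their transcripts were the 3 of these 4 with no overlap between the groups; capitals mark every match.
Epcam (chr17:87635729-87636028, plus strand): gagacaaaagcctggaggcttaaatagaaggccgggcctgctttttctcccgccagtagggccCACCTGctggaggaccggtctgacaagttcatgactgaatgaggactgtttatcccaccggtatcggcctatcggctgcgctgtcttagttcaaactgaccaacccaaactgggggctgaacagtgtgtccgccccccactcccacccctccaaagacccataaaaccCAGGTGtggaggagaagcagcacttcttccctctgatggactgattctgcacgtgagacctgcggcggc
Elf3 (chr1:135258423-135258722, minus strand): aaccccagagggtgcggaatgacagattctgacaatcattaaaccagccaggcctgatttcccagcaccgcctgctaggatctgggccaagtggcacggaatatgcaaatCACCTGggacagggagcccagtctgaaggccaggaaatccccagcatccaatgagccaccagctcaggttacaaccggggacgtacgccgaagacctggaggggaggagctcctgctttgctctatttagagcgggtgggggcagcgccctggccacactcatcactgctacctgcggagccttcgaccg
Rab25 (chr3:88548230-88548529, minus strand): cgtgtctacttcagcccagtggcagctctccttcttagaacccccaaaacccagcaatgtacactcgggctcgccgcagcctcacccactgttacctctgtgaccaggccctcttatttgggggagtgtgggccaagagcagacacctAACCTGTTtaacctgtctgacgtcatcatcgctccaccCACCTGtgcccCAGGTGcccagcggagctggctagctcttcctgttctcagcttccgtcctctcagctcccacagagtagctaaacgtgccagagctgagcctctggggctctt
The E-box letters occurred 2 times in the Epcam window, at -187 to -182 and -19 to -14 with the start site at 0, and 2 times in the Rab25 window, at -64 to -59 and -53 to -48. In the Elf3 window they occurred 1 time, at -140 to -135, and the Gata3 window held none of the 5 motifs. Of 32851 promoter windows of this length 20.2% held the E-box, 4.2% AACNNGTT, 0.146% AACCGGTT, 23.8% GGAAGT and 11.2% AGATAA. The looser grainyhead-like form was present in Rab25 alone of the 4, at -102 to -95. A match is a description of the sequence and no measurement of binding.

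Among the adhesion genes Cdh1 was the most abundant member in every library and Epcam the next. Epcam (ENSMUSG00000045394, chromosome 17, 87943407 to 87958557 on GRCm39) encodes EpCAM, a homophilic adhesion protein of carcinoma cells that also signals after cleavage. It had 42.2, 38.2 and 36.04 FPKM in the vehicle libraries and 66.9, 64.7 and 63.8 FPKM in the KIRA6 libraries. Every KIRA6 library lay above every vehicle library, and the values were close within each group. The mean rose from 38.8 ± 3.14 to 65.1 ± 1.59 FPKM (SD, n = 3 each), and limma gave 0.74 ± 0.12 (SE) for the log2 fold change, with an adjusted p of 0.007936. The call held in each of the 16 alternatives, with log2 fold changes from 0.55 to 0.84. It was close to the threshold without Vehicle replicate 2 (adjusted p = 0.04942) and without KIRA6 replicate 2 (adjusted p = 0.04546).

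Cdh1 (ENSMUSG00000000303, chromosome 8, 107329983 to 107396878) encodes E-cadherin, the calcium-dependent core of the adherens junction. It had 63.2, 75.5 and 119.4 FPKM in vehicle and 104.3, 148.1 and 226.5 FPKM with KIRA6. The groups overlapped because Vehicle replicate 3 lay above KIRA6 replicate 1. The means were 86.02 ± 29.5 and 159.6 ± 61.9 FPKM, and the log2 fold change of 0.87 ± 0.34 (SE, 95% interval 0.05 to 1.69) was not called (adjusted p = 0.1157). It was called without Vehicle replicate 3 (log2 fold change 1.13, adjusted p = 0.04487) and without that library and KIRA6 replicate 1 together (1.40, adjusted p = 0.0007668). Choosing these 2 libraries for their distance from the rest narrows the groups by construction.

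The ratio of Epcam to Cdh1 did not separate the groups. On the log2(FPKM + 0.5) scale it was -0.58, -0.97 and -1.71 in the vehicle and -0.64, -1.19 and -1.82 in the KIRA6 libraries, a difference of -0.13 (exact two-sided permutation p = 0.7, adjusted p = 0.7 over 3 ratios). The difference was 0.13 with Vehicle replicate 1 left out and 0.17 with KIRA6 replicate 3 left out. With 3 libraries against 3 such a test cannot give a p below 0.1.

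Rab25 (ENSMUSG00000008601, chromosome 3, 88449336 to 88455607) encodes an epithelial GTPase of the Rab11 family that returns integrins and other cargo to the membrane. Its values were 6.27, 5.43 and 5.31 FPKM in vehicle and 10.2, 9.42 and 6.38 FPKM with KIRA6. KIRA6 replicate 3 lay just above the highest vehicle library, and the other KIRA6 libraries clearly above it. The log2 fold change of 0.55 ± 0.20 (SE, 95% interval 0.07 to 1.03) was not called (adjusted p = 0.09223), and it was called without KIRA6 replicate 3 (0.74, adjusted p = 0.03735).

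The splicing regulators Esrp1 and Esrp2 are related RNA-binding proteins with overlapping targets. Esrp1 (ENSMUSG00000040728, chromosome 4, 11331933 to 11386783) had 10.2, 9.74 and 13.7 FPKM in vehicle and 16.0, 17.6 and 22.8 FPKM with KIRA6. All KIRA6 libraries lay above all vehicle libraries. The mean rose from 11.2 ± 2.16 to 18.8 ± 3.57 FPKM. The log2 fold change was 0.72 ± 0.20 (SE), close to the threshold (adjusted p = 0.04017). The call ended with median-ratio scaling (0.54, adjusted p = 0.09059), with no filter on low genes (adjusted p = 0.07551) and with any of 4 libraries left out, namely replicates 1 and 2 of Vehicle (adjusted p = 0.1198 and 0.1463) and replicates 2 and 3 of KIRA6 (adjusted p = 0.115 and 0.1167).

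Esrp2 (ENSMUSG00000084128, chromosome 8, 106856951 to 106863606) had 3.43, 4.55 and 4.80 FPKM in vehicle and 3.54, 3.64 and 4.67 FPKM with KIRA6. The groups covered nearly the same range. Its log2 fold change was -0.09 ± 0.18 (SE, 95% interval -0.53 to 0.34, adjusted p = 0.7549), which turned to 0.05 without Vehicle replicate 3 and KIRA6 replicate 1 together. The log2 ratio of Esrp1 to Esrp2 was 1.44, 1.02 and 1.42 in vehicle and 2.03, 2.13 and 2.17 with KIRA6. It was higher in each KIRA6 library than in any vehicle library, by 0.82 on average (exact two-sided permutation p = 0.1, the smallest this design allows, adjusted p = 0.15 over 3 ratios). Esrp2 overlaps the end of Nfatc3 on the opposite strand, and the strand setting of the counting is not stated.

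Of the ETS factors of epithelium Elf3 had the largest fold change of all members, while Ehf was near the limit of detection. Elf3 (ENSMUSG00000003051, chromosome 1, 135181313 to 135186306), a factor of simple epithelia that inflammatory signals can induce, had 3.82, 3.17 and 6.02 FPKM in vehicle and 18.4, 24.1 and 24.2 FPKM with KIRA6. The lowest KIRA6 library was well above the highest vehicle library. The mean rose 5.12-fold, from 4.34 ± 1.49 to 22.2 ± 3.34 FPKM. Its log2 fold change was 2.26 ± 0.24 (SE), with an adjusted p of 0.001858. It was called in each of the 16 alternatives, with log2 fold changes from 2.09 to 2.63. In vehicle its mean ranked 6 of the 10 members and lay within the spread of Esrp2 and Grhl2 (4.26 ± 0.73 and 4.02 ± 0.467 FPKM). With KIRA6 it ranked 3, within the spread of Esrp1 and Gata3.

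Ehf (ENSMUSG00000012350, chromosome 2, 103093778 to 103133623), the close relative of Elf3, was barely detected. It had 0, 0 and 0.01 FPKM in vehicle and 0.04, 0.05 and 0.01 FPKM with KIRA6, an estimated 0, 0, 1, 5, 5 and 1 fragments. A library at 0 allows a true level of up to 3 fragments, or 0.0296 and 0.0326 FPKM in Vehicle replicates 1 and 2, for counting error only. The log2 ratio of Elf3 to Ehf, which follows Elf3 alone at this depth, was higher with KIRA6 by 2.18 (exact two-sided permutation p = 0.1, adjusted p = 0.15 over 3 ratios).

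Ovol1 (ENSMUSG00000024922, chromosome 19, 5599164 to 5610674) encodes a zinc finger repressor that limits Zeb1 and other mesenchymal genes. It had 1.09, 1.32 and 1.40 FPKM in vehicle and 2.70, 2.55 and 2.41 FPKM with KIRA6, or 69 to 91 and 162 to 201 estimated fragments. The groups were well apart and tight. The mean rose from 1.27 ± 0.161 to 2.55 ± 0.145 FPKM. The log2 fold change was 0.79 ± 0.14 (SE), with an adjusted p of 0.01093. The opposite-strand transcript 1810058N15Rik, at 0 to 0.54 FPKM, overlaps its 5′ end. The call ended with quantile normalization (0.44, adjusted p = 0.1222) and without KIRA6 replicate 2 (0.79, adjusted p = 0.05581).

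Grhl2 (ENSMUSG00000022286, chromosome 15, 37233280 to 37363813), a grainyhead-like activator of Cdh1 and of junction genes, had 3.67, 3.84 and 4.55 FPKM in vehicle and 3.23, 3.31 and 5.14 FPKM with KIRA6. KIRA6 replicates 1 and 2 lay below the vehicle libraries and KIRA6 replicate 3 above them. Its log2 fold change was -0.06 ± 0.21 (SE, 95% interval -0.55 to 0.43, adjusted p = 0.8582). The sign turned with Vehicle replicate 3 left out (0.02) and with KIRA6 replicate 1 or 2 left out (0.04 and 0.03), so no direction can be given.

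Gata3 (ENSMUSG00000015619, chromosome 2, 9861889 to 9894845) is the zinc finger factor that keeps mammary luminal cells differentiated. It had 6.10, 5.74 and 16.1 FPKM in vehicle and 10.3, 18.4 and 25.1 FPKM with KIRA6. As for Cdh1, Vehicle replicate 3 lay above KIRA6 replicate 1. The log2 fold change of 0.98 ± 0.47 (SE, 95% interval -0.14 to 2.10) was the second largest of the members and was not called (adjusted p = 0.1793). Without Vehicle replicate 3 it was 1.44 (adjusted p = 0.02902), and without that library and KIRA6 replicate 1 together 1.78 (adjusted p = 8.854e-05). As for Cdh1, leaving out these libraries narrows the groups by construction. Of all tested genes 17.5% and 35.9% were called higher in these fits. The transcript 9230102O04Rik lies inside Gata3 on the same strand, at 0.81 to 1.83 FPKM, so fragments may be shared or lost between them.

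**Figure D2:**
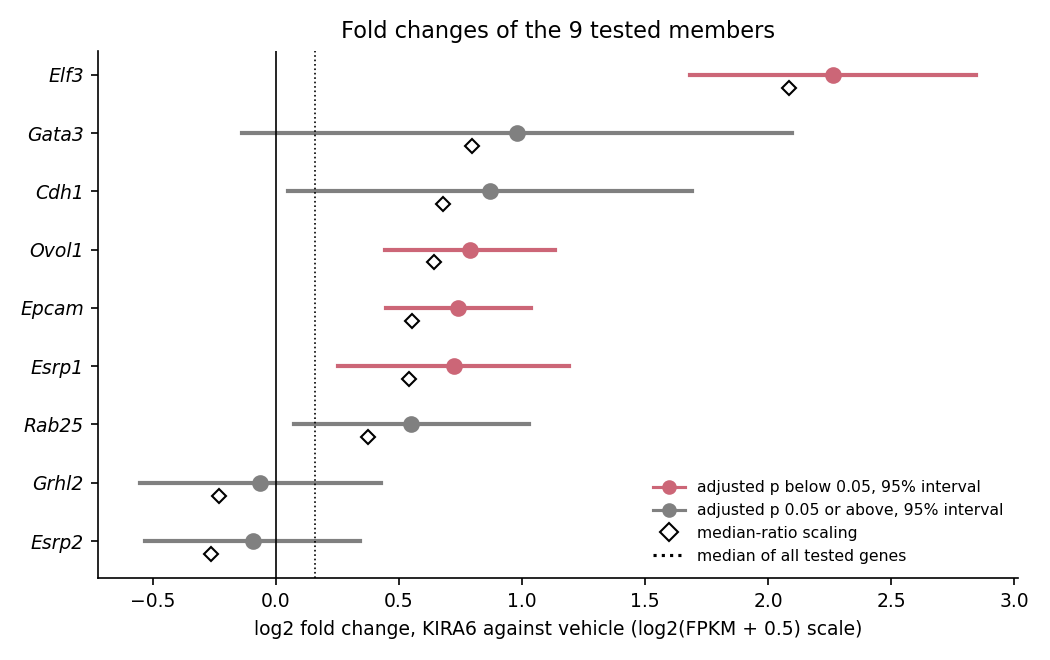
Log2 fold change of KIRA6 against vehicle for the 9 tested members, with the 95% interval from limma, red where the adjusted p was below 0.05, and open diamonds for the value after median-ratio scaling. The diamonds lie 0.15 to 0.19 below the circles, and Elf3 stands apart at 2.26 while Grhl2 and Esrp2 lie near 0.

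The spread within groups followed the same libraries for most members. Vehicle replicate 3 was the highest vehicle library for 7 of the 9 tested members, all but Epcam and Rab25, against 40.3% of all tested genes. KIRA6 replicate 1 was the lowest KIRA6 library for 6 of the 9, namely Cdh1, Esrp1, Esrp2, Grhl2, Elf3 and Gata3, against 42.5% of all tested genes. Both held for those 6 members, against 32.1% of all tested genes. Without these libraries together 6 members were called higher, the 4 above with Cdh1 and Gata3, when 35.9% of all tested genes were. With Vehicle replicate 3 alone left out the same 6 were called, when 17.5% of all tested genes were called higher. Epcam, Ovol1 and Rab25 instead had KIRA6 replicate 1 as their highest library.

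**Figure D3:**
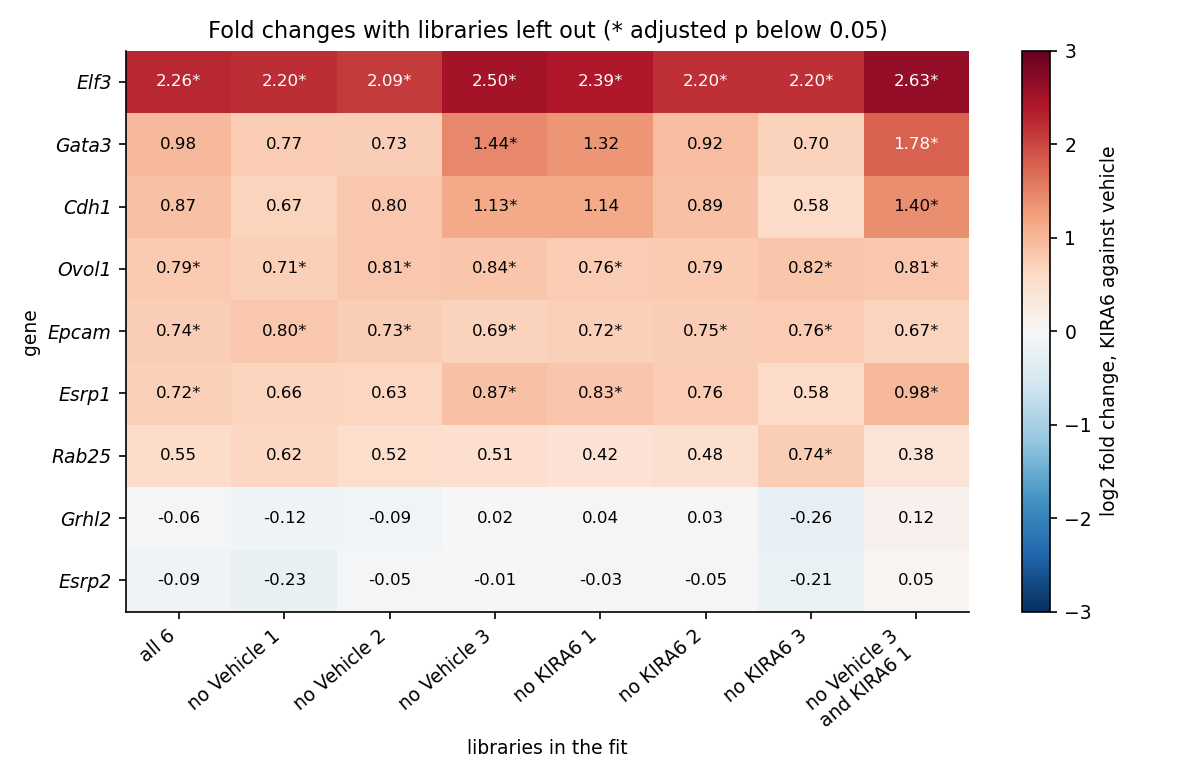
Log2 fold change of each tested member (rows) with all 6 libraries, with each library left out in turn, and with Vehicle replicate 3 and KIRA6 replicate 1 left out together (columns), with an asterisk where the adjusted p was below 0.05. Elf3 and Epcam carry an asterisk in every column, Esrp1 loses it in 4 of the 6 columns with 1 library left out, and Cdh1 and Gata3 gain it where Vehicle replicate 3 is absent.

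Genes that act with the members were taken from 5 lists of 116 genes in all, of which 91 were tested. In the list of partners of Cdh1 and Epcam at adherens junctions and desmosomes 5 of 23 tested genes rose and 0 fell. Over all tested genes 15.6% were called higher and 7.98% lower. The median log2 fold change was 0.36 beside 0.16 over all tested genes. Perp, a desmosomal membrane protein and p53 target, rose from 89.6 ± 17.8 to 189.5 ± 14.9 FPKM (log2 fold change 1.09 ± 0.19, SE, adjusted p = 0.008281), and the desmosomal plaque protein Pkp1 from 2.51 ± 0.192 to 4.74 ± 0.305 FPKM. The other 3 that rose were the desmosomal cadherin Dsg2 (log2 fold change 1.38), periplakin (Ppl, 1.74) and envoplakin (Evpl, 1.23). Their adjusted p was 0.0123, 0.03011 and 0.04171, that of Evpl being close to the threshold. The call for Dsg2 ended without Vehicle replicate 2 (adjusted p = 0.0546) and without KIRA6 replicate 2 (adjusted p = 0.05672). Of the 10 tested desmosome genes of the list 5 rose and 5 were not called, a grouping made after the calls were seen. The number of the 23 that rose was 2 when replicate 2 of either group was left out, 3 when Vehicle replicate 1 or KIRA6 replicate 3 was, 8 when Vehicle replicate 3 was and 9 when KIRA6 replicate 1 was.

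The catenins that tie E-cadherin to actin were not called. β-catenin (Ctnnb1) had 172.6 ± 47.6 and 216.5 ± 28.3 FPKM (adjusted p = 0.3278), p120-catenin (Ctnnd1) 11.1 ± 1.28 and 11.9 ± 2.5 FPKM (adjusted p = 0.7761), and α-catenin (Ctnna1) 40.6 ± 10.2 and 45.6 ± 9.8 FPKM (adjusted p = 0.639). Plakoglobin (Jup), shared by adherens junctions and desmosomes, had 3.52, 5.33 and 13.7 FPKM in vehicle and 11.03, 32.2 and 35.9 FPKM with KIRA6. Here too Vehicle replicate 3 lay above KIRA6 replicate 1, and the log2 fold change of 1.79 ± 0.60 (SE) was not called (adjusted p = 0.07406). It was called when either or both of these libraries were left out, which narrows the groups by construction. Cdh3, Nectin4, Dsc2, Dsc3 and Dsg3 were too low to test, at no more than 0.79 FPKM in any library.

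Of the other factors of epithelial and mammary identity 11 of 23 were tested. Of these 1 rose and 0 fell, beside 15.6% and 7.98% of all tested genes, with a median log2 fold change of 0.47. The one that rose was Grhl3, a grainyhead-like factor of surface epithelium. It had 0.08, 0.17 and 0.14 FPKM in vehicle and 0.94, 1.61 and 1.57 FPKM with KIRA6, with a fitted difference of 1.55 ± 0.20 (SE, adjusted p = 0.003172). Grhl3, like Evpl above, passed the filter through its KIRA6 libraries, so its call says less than that of a gene expressed in both groups, and with a filter of at least 1 FPKM it was not tested and 0 of these factors were called. Grhl1 and Ovol2, the other expressed relatives of Grhl2 and Ovol1, had non-overlapping groups at 0.560 ± 0.0436 against 0.960 ± 0.07 FPKM and 0.857 ± 0.15 against 1.38 ± 0.0651 FPKM, and neither was called (adjusted p = 0.05511 and 0.064). Klf5 had 12.9 ± 4.85 and 19.3 ± 7.93 FPKM (adjusted p = 0.299), and the alveolar factor Elf5 was at 0 in all 6 libraries.

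The mesenchymal counterparts showed no common direction. Of 8 tested genes 1 fell and 0 rose, beside 7.98% and 15.6% of all tested genes, with a median log2 fold change of 0.11. The groups did not overlap for 2 genes with KIRA6 higher and 2 with KIRA6 lower (27.7% and 14.1% of all tested genes). Mean Tcf4 went from 1.16 to 2.39 FPKM (adjusted p = 0.05511) and S100a4 from 520.9 to 837.0 FPKM (adjusted p = 0.09828). Vim and Twist1 were the 2 lower ones, Twist1 at 12.4 and 9.69 FPKM (adjusted p = 0.1689). The intermediate filament gene Vim had 393.9, 397.3 and 613.9 FPKM in vehicle and 175.6, 259.5 and 254.6 FPKM with KIRA6, which limma fitted as -1.01 ± 0.25 (SE) on the log2 scale, with an adjusted p of 0.02773. All KIRA6 libraries lay below all vehicle libraries, yet leaving out any 1 library other than Vehicle replicate 3 ended the call (adjusted p = 0.05326 to 0.07369). Zeb1, Snai2 and the N-cadherin gene Cdh2 reached at most 0.08, 0.15 and 0.02 FPKM and were not tested. The related repressor Snai1 was expressed, at 4.08 ± 2.02 and 4.21 ± 0.905 FPKM, and was not called (adjusted p = 0.8479). Zeb2 had 1.16 ± 0.0666 and 1.30 ± 0.193 FPKM (adjusted p = 0.6456).

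Among surface, polarity and recycling genes 5 of 29 tested rose and 1 fell, with a median log2 fold change of 0.33. The share that rose was close to the 15.6% of all tested genes, of which 7.98% were called lower. The membrane serine proteases Prss8 (prostasin) and St14 (matriptase), which act in one epithelial cascade, rose from 2.79 ± 0.238 to 11.4 ± 2.52 FPKM (adjusted p = 0.001819) and from 16.4 ± 1.48 to 25.9 ± 1.41 FPKM (adjusted p = 0.01431). The exchange factor Arhgef16 rose from 1.31 ± 0.194 to 3.40 ± 0.196 FPKM (adjusted p = 0.003581). The apical polarity genes Crb3 and Pals1, whose products bind each other, had log2 fold changes of 1.09 and 0.96, and the membrane protein gene Tmem125 was the one that fell (-0.62). The groups did not overlap for 12 genes with KIRA6 higher and 3 with KIRA6 lower (27.7% and 14.1% of all tested genes). Beside Tmem125 the lower ones were Lad1, from 133.1 to 86.0 FPKM (adjusted p = 0.0628), and the polarity gene Pard6b, from 12.7 to 8.07 FPKM (adjusted p = 0.117). Neither was called. Leaving out Vehicle replicate 1 or 2, or KIRA6 replicate 2 or 3, ended the call for St14. The number that rose was 2 without KIRA6 replicate 2 and 3 with any other of these 4 libraries left out, and 0 then fell. In those 4 fits 817 to 1101 of all 11778 tested genes were called higher and 394 to 521 lower. With all libraries these were 1843 and 940. Rab11a and Rab11fip1, which work in the recycling route of Rab25, had 45.3 ± 4.78 against 53.4 ± 0.91 FPKM and 2.90 ± 0.457 against 3.93 ± 0.327 FPKM and were not called (adjusted p = 0.2358 and 0.1267).

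The splicing list holds other regulators and genes that ESRP proteins splice. Of its 21 tested genes 2 rose and 2 fell, beside 15.6% and 7.98% of all tested genes, with a median log2 fold change of 0.17. Cd44, a hyaluronan receptor whose variable exons ESRP1 retains, had 46.4, 45.4 and 92.5 FPKM in vehicle and 8.55, 11.4 and 16.0 FPKM with KIRA6. It fell by 2.27 on the log2 scale (SE 0.34, adjusted p = 0.005347), in every KIRA6 library relative to every vehicle library. Gene-level FPKM does not separate its splice forms, so no statement on ESRP-dependent exons can be made. Mbnl1, which favours differentiated splicing patterns, rose from 4.55 ± 0.488 to 9.59 ± 2.8 FPKM (adjusted p = 0.0246), Exoc7 rose from 6.49 ± 0.521 to 10.6 ± 0.267 FPKM (adjusted p = 0.01253), and Celf1 fell (log2 fold change -0.54). Leaving out Vehicle replicate 1 or 2 or KIRA6 replicate 2 ended the calls for both Mbnl1 and Exoc7, and leaving out KIRA6 replicate 3 that for Mbnl1. The list's counts ran from 0 to 4 higher and from 1 to 4 lower over the 6 fits that leave out 1 library. Over the same fits 817 to 2064 of all 11778 tested genes were called higher and 394 to 1328 lower. Rbm47, another epithelial RNA-binding protein, had 2.99 ± 1.46 and 4.21 ± 1.58 FPKM (adjusted p = 0.395).

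**Figure D4:**
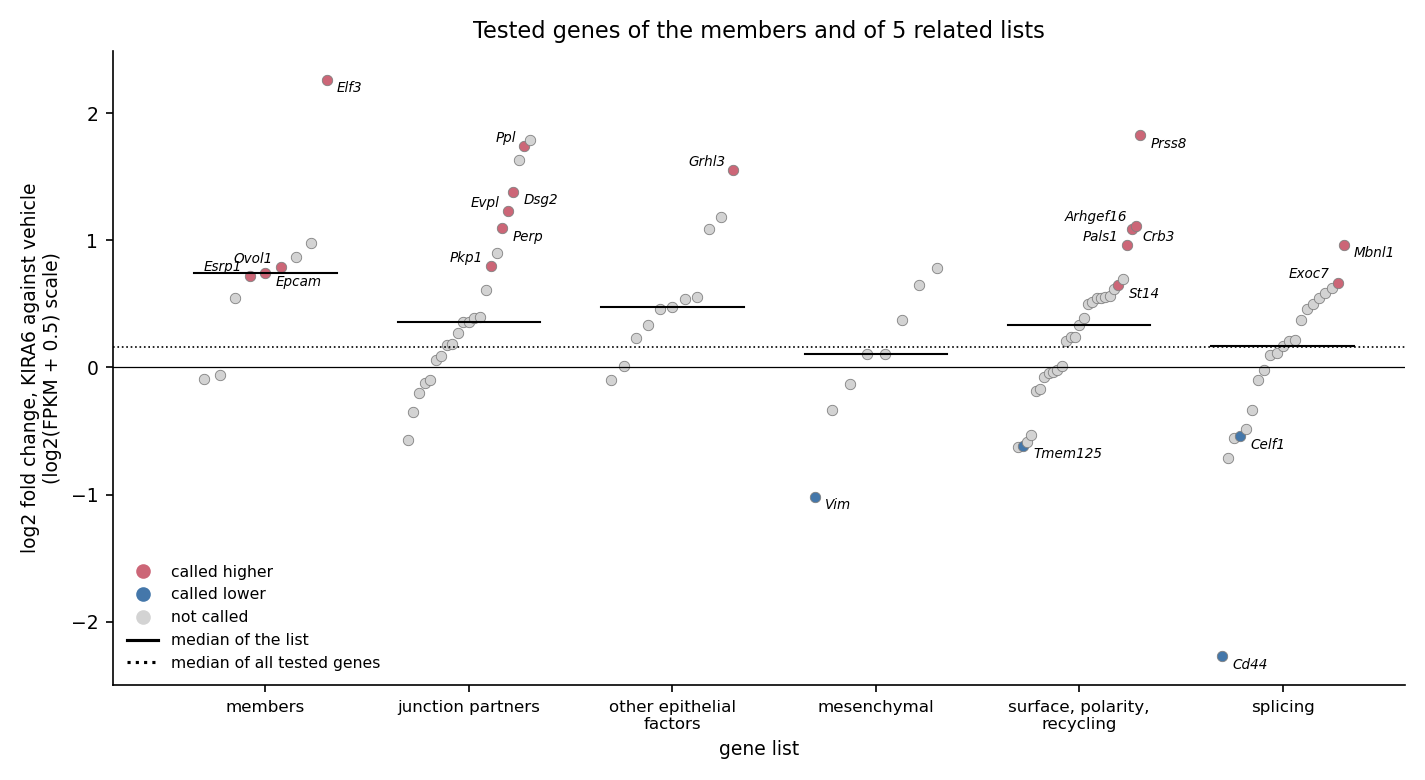
Log2 fold change of KIRA6 against vehicle for each tested gene of the members and of the 5 lists, red where called higher, blue where called lower and grey where not called, with a bar at the median of each list and a dotted line at 0.16, the median of all tested genes. The members have the highest median of the sets shown (0.74). Members and lists were chosen with earlier results of these data known, so this order is a description only. Elf3 among the members, Prss8 among the surface genes and Cd44 among the splicing genes lie farthest from 0.

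In RNA from whole cultures a higher level per cell and a larger share of cells with the transcript cannot be told apart. The basal keratin Krt14 and the luminal keratin Krt19 were higher in the same libraries as Elf3, Epcam, Esrp1 and Ovol1, with means of 22.9 ± 0.721 and 162.1 ± 6.1 FPKM for Krt14 and 22.4 ± 2.21 and 110.5 ± 6.7 FPKM for Krt19, while Krt8 had 586.3 ± 114 and 645.5 ± 110.0 FPKM and Krt18 597.4 ± 30 and 499.9 ± 39.2 FPKM. Their part in the members' results was not tested.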

How the data were processed

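Polyadenylated RNA of 6 4T1 libraries was sequenced with strand marking, per the labels' protocols. The authors deposited FPKM with 2 decimals for each gene and library, beside the exonic length and GRCm39 coordinates. Tools listed, without roles or settings, in the submitters' processing notes are HISAT2 2.2.1, HTSeq 0.6.1, cutadapt 1.9.1 and DESeq2 1.34.0. Depth was recovered from the steps between low values of genes of at most 500 bases, where every checked value lay within 0.1 fragment of a whole number. Fragments per gene are estimates from it.

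The test was two-sided, with limma 3.58.1 (R 4.3.3) on log2(FPKM + 0.5), KIRA6 against vehicle as the only term, empirical Bayes with an intensity trend and robust, and Benjamini-Hochberg adjustment over 11778 genes. Fold changes on this scale understate those of low genes, Ovol1 and Grhl3 among them. The ratios of 3 pairs of members were tested by exact permutation. Qki was matched to its older symbol Qk. The steps were tested on simulated data.

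The members and lists were chosen with earlier results of these data known. Named genes are all members, 17 further genes whatever their values, and up to 3 called genes of each list with the smallest p. Ppl, Evpl, Crb3, Pals1, Tmem125, Lad1, Pard6b, Tcf4, S100a4, Snai1, Twist1, Celf1 and the keratins, Cd68, Pdgfra and Acta2 were named after their values were seen. The lists and their counts leave out 3 genes that are not reported here. There were 16 alternatives, covering pseudocount, filter, scaling, empirical Bayes settings, a replicate block, limma-voom on estimated fragments and libraries left out.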

Additional observations from a re-analysis of the deposited data

How the results depend on the processing

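Depth limits Ehf, with at most 5 estimated fragments in a library. Members called higher numbered 4, and 2 to 6 with 1 library left out (6 without Vehicle replicate 3, 2 without KIRA6 replicate 2), with 0 called lower throughout the 16 alternatives. Over all genes 1843 were called higher (817 to 2064 with 1 library left out, 1132 with quantile normalization) and 940 lower (394 to 1328 with 1 library left out, 1438 with median-ratio scaling). Median-ratio scaling lowered the share of higher calls from 66.2% to 47.4%, and quantile normalization to 48.9%. A single library left out gave 2 to 9 called higher and 0 lower for the junction list, 1 higher and 0 lower for the identity factors, 0 to 1 higher and 0 to 1 lower for the mesenchymal list, 2 to 5 higher and 0 to 1 lower for the surface list, and 0 to 4 higher and 1 to 4 lower for the splicing list.

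With Vehicle replicate 3 and KIRA6 replicate 1 both left out, 4227 genes were called higher and 2383 lower. The lists then had 15 higher and 1 lower (junctions), 8 higher (identity), 4 higher and 1 lower (mesenchymal), 15 higher and 3 lower (surface) and 11 higher and 4 lower (splicing), and Esrp2 and Grhl2 turned to 0.054 and 0.12. Without a filter 0 mesenchymal genes were called lower, and 1 splicing gene higher and 1 lower. A filter of at least 1 FPKM called 0 identity factors higher and 0 surface genes lower. Median-ratio scaling called 2 surface and 4 splicing genes lower and turned Ctnna1, Ctnnd1 and Zeb2 to -0.014, -0.095 and -0.026. Quantile normalization called 1 mesenchymal gene higher, 3 surface genes higher and 4 splicing genes lower, and turned Zeb2 to -0.24. Limma-voom called 1 mesenchymal gene and 2 identity factors higher, and the fit with neither trend nor robust settings 2 identity factors higher. With 1 library left out Grhl2 ran from -0.26 to 0.041, positive where Vehicle replicate 3, or KIRA6 replicate 1 or 2, was absent. Ctnnd1 ran from -0.068 to 0.21 and Epcam over Cdh1 from -0.44 to 0.17, each with its sign turned in the absence of Vehicle replicate 1 or KIRA6 replicate 3. The causes were not tested.

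The labels do not say what replicate numbers share. Deviations from the group means of same-numbered libraries correlated at 0.762, -0.469 and 0.738, so the numbers were not taken as pairs, and not every library correlated best with its own number. A replicate block called 7 members (the 4 with Cdh1, Gata3 and Rab25), 2883 genes higher and 1540 lower, and 9 junction, 3 identity, 2 mesenchymal, 9 surface and 5 splicing genes higher, with 1 mesenchymal, 4 surface and 4 splicing genes lower.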
